A study of Mus musculus with 8 samples.

Results

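Mitochondrial ribosomal protein genes are described here in mouse blood stem and progenitor cells with and without Asxl2. They were taken as every protein-coding gene whose symbol starts with Mrpl or Mrps and a number. This gave 78 of the 47311 genes matched in the annotation, and all 78 had enough counts to be among the 25543 genes tested. Of the 78, 51 encode proteins of the large subunit and 26 of the small subunit. The large subunit includes Mrps18a and Mrps30, which keep small-subunit names. The product of Mrps36 is no ribosomal protein and belongs to the alpha-ketoglutarate dehydrogenase complex.

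The mitochondrial ribosome translates the few respiratory-chain proteins encoded by mitochondrial DNA. Its RNAs are transcribed inside the organelle, whereas all its proteins are encoded in the nucleus, made in the cytosol and imported. Some of these proteins descend from the bacterial ribosome and others were added in the mitochondrial lineage. Resting blood stem cells rely little on respiration, which gains weight when they divide and mature.

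RNA with polyA tails was sequenced from LSK cells, the lineage-negative, Sca1-positive and Kit-positive fraction of the marrow that holds blood stem cells and multipotent progenitors. Libraries were made with SMART-Seq v4, a kit for very small RNA inputs. The 4 groups were young WT, young Asxl2 KO, old WT and old Asxl2 KO mice, with 2 libraries each, and Asxl2 encodes a chromatin protein that partners with the deubiquitinase Bap1. The young groups were aged 8 to 12 weeks and the old groups more than 1 year. Litters 1 and 2 are old and litters 3 and 4 young, each with 1 KO and 1 WT library, and litters 1 and 3 belong to batch 1 while litters 2 and 4 belong to batch 2. Replicate numbers follow the order of deposit, so replicate 1 of the young groups is litter 4. How the KO allele was made, the strain, and whether a library held 1 mouse or a pool are not given in the sources used here.

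Library totals ran from 45737972 to 80388500 estimated counts. WT young 1 had the fewest genes detected, at 26723 against 30210 to 36846 in the other libraries. Asxl2 was at 4.63 to 5.63 TPM in the KO libraries and 23.0 to 30.8 TPM in WT (log2 change -2.10, SE 0.17, edgeR adjusted p = 0.000408). Both libraries of litter 1 held Xist RNA (3.33 TPM in KO and 3.61 TPM in WT), against at most 0.0612 TPM in the other 6 libraries. Markers of some cell types differed between the genotypes. Summed erythroid markers were at 47.9 to 494 TPM in KO and 101 to 1140 TPM in WT, with 6 of 7 lower in KO, and mast cell markers at 9.71 to 18.2 against 32.9 to 103 TPM, with 4 of 4 lower. With the length correction described below, 2 of 7 and 4 of 4 were lower. Stem cell markers summed to 275 to 604 TPM in KO and 610 to 1080 TPM in WT (1 of 6 higher and 3 lower), and neutrophil markers to 54.9 to 1540 and 5.99 to 1040 TPM (0 of 6 called). The LSK gate genes Kit, Ly6a and Cd34 summed to 1060 to 1230 TPM in KO and 1110 to 1740 TPM in WT (1 of 3 higher and 1 lower). Megakaryocyte and platelet markers summed to 115 to 191 and 86.4 to 158 TPM (1 of 5 higher). Summed markers ran from 76.5 to 99.1 TPM over the 8 libraries for B cells (1 of 6, Pax5, under 1 TPM throughout) and from 6.51 to 18.4 TPM for T and NK cells (1 of 5, Cd3e). They ran from 12.3 to 128 TPM for macrophages and monocytes (1 of 5, Adgre1) and from 28.3 to 54.7 TPM for stroma and endothelium (1 of 5, Cdh5). The part of these cells in the results that follow was not tested, and in pooled RNA a change in the mix of cells cannot be told apart from a change in RNA per cell.

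The genes were expressed at moderate to high levels. Mean TPM over the 8 libraries, a level scaled for transcript length and depth, ran from 22.0 for Mrpl1 to 319 for Mrpl17, a 14.5-fold range, with a median of 101. That median lies at percentile 78 of 9753 other coding genes with at least 5 TPM. The lowest value of any of the 78 genes in any library was 17.3 TPM, and 62 genes stayed above 50 TPM in every library. The 5 highest were Mrpl17, Mrpl42 (285), Mrpl28 (277), Mrps14 (199) and Mrpl18 (197), and the 5 lowest Mrpl1, Mrpl57 (24.3), Mrpl11 (26.2), Mrpl23 (35.2) and Mrpl47 (38.1). The value of Mrpl23 is uncertain, because its processed pseudogene Mrpl23-ps1 was listed at a mean of 159 TPM and shares much of its sequence.

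Summed over the 78 genes, the level was 10052 and 10243 TPM in the old KO libraries 1 and 2, and 8749 and 9298 TPM in the young KO libraries. It was 8378 and 8312 TPM in old WT and 7123 and 8248 TPM in young WT libraries. All 4 KO libraries lay above all 4 WT libraries (9586 ± 691 against 8015 ± 597 TPM, SD, n = 4), old KO libraries were the highest, and the young WT library of litter 4 was the lowest. These genes have shorter transcripts than other coding genes (median 768 against 1960 bases), and the relation of TPM to length differed between libraries, as described below. Sums over other genes of similar length are not given here, and the part of length in these sums was not tested. The large subunit held 1.888 to 2.021 times the summed TPM of the small subunit in each library. This ratio averaged 1.958 ± 0.0489 over KO and 2.003 ± 0.0163 over WT libraries (SD, n = 4), and the ranges overlapped.

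**Figure D1:**
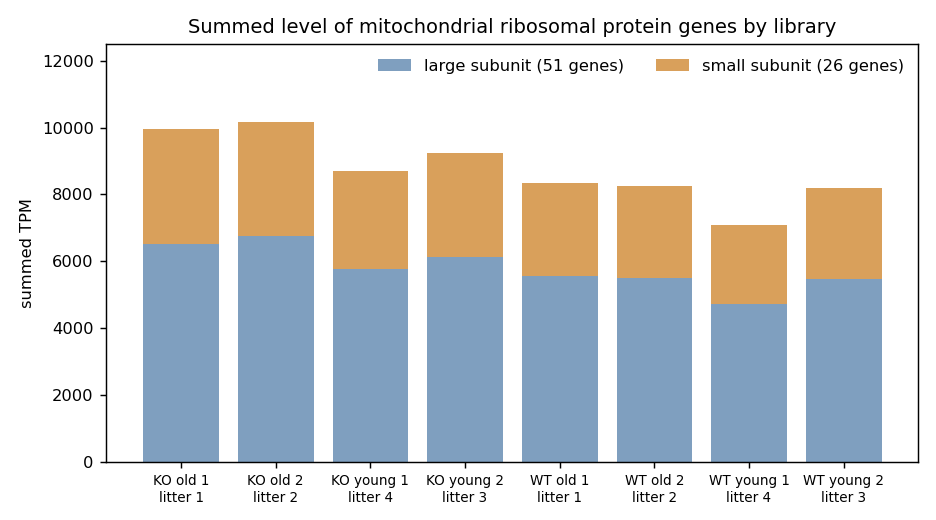
Summed TPM of the 51 large-subunit genes (lower bar) and 26 small-subunit genes (upper bar) in each of the 8 libraries, with the litter under each name. The 4 KO bars, at 8749 TPM or more with Mrps36 included, stand above the 4 WT bars, at 8378 TPM or less.

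The first comparison asks which of these genes differ between KO and WT cells at either age. In KO cells 15 of the 78 genes rose and 0 fell (edgeR quasi-likelihood test, Benjamini-Hochberg adjusted p under 0.05 over all genes tested). Of all genes tested 9.98% were called in either direction and 3.19% were higher in KO, against 19.2% of the 78. At an unadjusted p under 0.05, 48 were higher and 0 lower, against 3102 higher and 4343 lower of the 25543 genes tested. Among 3490 coding genes of similar length, 752 were higher and 306 lower. The median log2 change of the 78 was 0.40 and 74 were above 0, while the median of all genes tested was 0.10. The count rests on single libraries: without KO old 1, KO old 2, WT old 1, WT old 2 or WT young 1 it was 0, without KO young 1 it was 6, without KO young 2 it was 8, and without WT young 2 it was 31. In the last 3 fits 1.51%, 6.53% and 6.43% of all genes tested were higher in KO. In the 5 fits with 0 calls, 25 to 58 genes were higher at an unadjusted p under 0.05 and the median change was 0.29 to 0.48. Without litter 1, the litter with Xist RNA, 0 passed (35 higher and 0 lower unadjusted) with a median of 0.38. With the litter as a block, 4 of the 15 passed, namely Mrpl16, Mrps28, Mrpl13 and Mrpl36, against 1.48% of all genes tested. Within batch 1 the median change was 0.35 and 0 passed (7 higher and 0 lower unadjusted), and within batch 2 it was 0.31 and 2 passed, where 13.1% of all genes tested were higher.

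Levels by litter give the same comparison without a model. The KO library had the higher TPM for 60, 69, 63 and 74 of the 78 genes in litters 1, 2, 3 and 4, with median log2 ratios of 0.24, 0.33, 0.19 and 0.29. Of 9749 to 9753 other coding genes with at least 5 TPM, 18.6%, 27.2%, 35.6% and 31.7% were higher in the KO library of the same litters. Transcripts of those genes are longer (median 1960 against 768 bases), and changes in KO followed length, as described below. The part of length in this contrast was not tested by litter. The KO library was higher in all 4 litters for 54 of the 78 genes, in 3 for 9, in 2 for 9, in 1 for 5 and in none for 1, Mrps27. In 24 genes all 4 KO libraries lay above all 4 WT libraries, and in 0 the reverse. Such separation was seen in 1.8% of all genes tested and in 5.27% of coding genes of similar length. The highest value was in an old KO library for 54 genes, and the lowest in the young WT library of litter 4 for 45. Shares of other genes are not given here for these counts or for the number of litters with KO higher. TPM decreased with length most steeply in the old KO libraries (slopes of -0.886 and -0.769, described below). It decreased least in the young WT library of litter 4 (-0.268). The part of length in these counts was not tested.

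**Figure D2:**
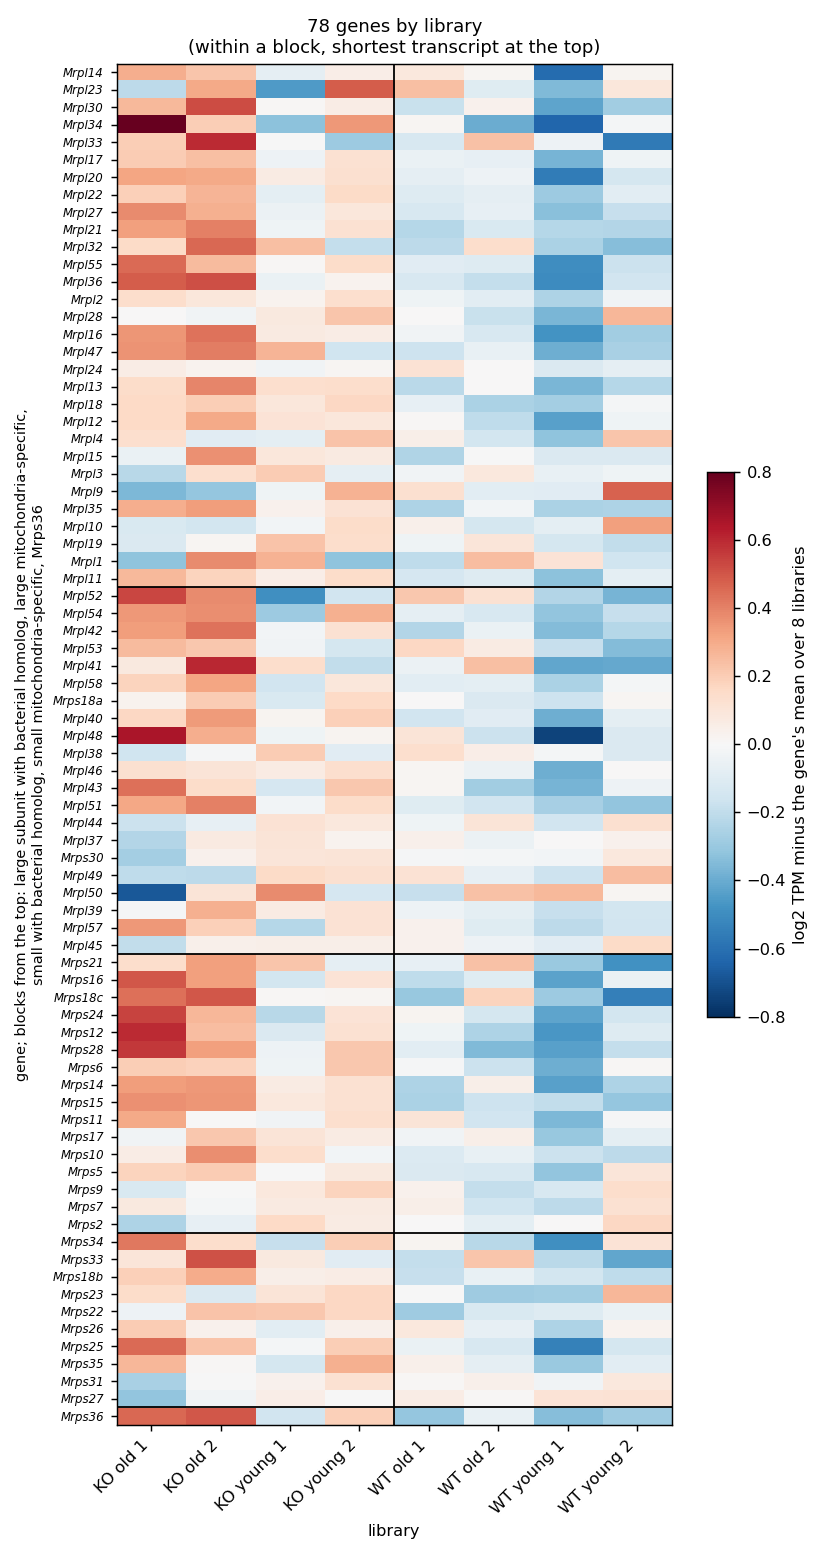
Log2 TPM of each of the 78 genes minus its mean over the 8 libraries, with red above and blue below the gene's mean, libraries in columns and genes in rows ordered by subunit, origin and transcript length. The old KO columns are mostly red and the column of WT young 1 is mostly blue, and rows of long transcripts at the bottom of a block depart from this most often.

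Among large-subunit genes, 10 of 51 rose. Mrpl16, a protein near the tRNA sites of the large subunit (chromosome 19, 11770391 to 11774960, GRCm38), was at 116 and 122 TPM in old KO and 95.2 and 94.3 TPM in young KO libraries. In WT it was at 88.6 and 82.7 TPM in old and 64.9 and 74.5 TPM in young libraries. No KO value overlapped a WT value, and the old libraries were higher within each genotype. Its log2 change was 0.60 (SE 0.13, adjusted p = 0.0248; 0.0449 with the litter block).

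Mrpl13 (chromosome 15, 55534094 to 55557748), the homolog of bacterial L13, was at 105 and 124 TPM in old KO, 104 and 104 in young KO, 81.3 and 94.6 in old WT and 73.2 and 80.5 in young WT. The groups did not overlap, and the KO library exceeded its WT littermate by 0.36 to 0.50 on the log2 TPM scale in each litter. Its log2 change was 0.60 (SE 0.14, adjusted p = 0.0304; 0.0460 with the litter block). Exons of Mrpl13 share 330 bases with those of Mtbp on the opposite strand, and no source used here says that the kit or the counting kept the strand.

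Mrpl36 (chromosome 13, 73328513 to 73332178), a small protein that joins the large subunit, was at 231 and 236 TPM in old KO and 159 and 169 TPM in young KO libraries. In WT it was at 151 and 145 TPM in old and 117 and 149 TPM in young libraries. The groups did not overlap, though the young KO libraries stood only just above the highest WT library. Its log2 change was 0.63 (SE 0.15, adjusted p = 0.0325; 0.0484 with the litter block).

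The other 7 large-subunit genes that rose lost their call with the litter block. Mrpl34, a short protein with a bacterial homolog, had the largest change among them (log2 0.66, SE 0.17, adjusted p = 0.0371; 0.0618 with the block). Its values overlapped, at 281, 182, 126 and 202 TPM in KO and 161, 121, 102 and 157 TPM in WT libraries, in the order old 1, old 2, young 1, young 2. Mrpl12, the stalk protein that also binds the mitochondrial RNA polymerase, was at 210, 232, 203 and 201 TPM in KO and 190, 164, 139 and 184 TPM in WT in the same order. It did not overlap between the genotypes (log2 0.49, SE 0.13, adjusted p = 0.0395; 0.0564 with the block). Mrpl42, at 328 ± 46.3 TPM in KO and 242 ± 20.9 TPM in WT (SD, n = 4), changed by 0.57 (adjusted p = 0.0411). Mrpl21, Mrpl20 and Mrpl18 changed by 0.56, 0.53 and 0.46 (adjusted p = 0.0474, 0.0497 and 0.0443), and Mrpl51, named after its values were seen, by 0.52 (adjusted p = 0.0383). With the block these 5 had adjusted p of 0.0567, 0.0728, 0.0644, 0.0594 and 0.0611.

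In the small subunit 5 of 26 genes rose. Mrps28 (chromosome 3, 8802146 to 8923918), the homolog of bacterial S1, was at 136 and 116 TPM in old KO and 89.5 and 107 TPM in young KO libraries. In WT it was at 87.0 and 72.1 TPM in old and 68.2 and 80.7 TPM in young libraries. The lowest KO value was just above the highest WT value, and Mrps28 had the largest change of the 78 genes (log2 0.68, SE 0.15, adjusted p = 0.0261; 0.0488 with the litter block).

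Mrps15, which binds the RNA of the small subunit, was at 201, 200, 165 and 170 TPM in KO and 131, 140, 136 and 126 TPM in WT libraries, in the order old 1, old 2, young 1, young 2. The groups did not overlap and the 4 WT values were close together (log2 0.61, SE 0.15, adjusted p = 0.0334; 0.0562 with the block). Mrps12, part of the decoding centre, was at 239, 187, 146 and 171 TPM in KO and 154, 133, 114 and 147 TPM in WT. Its KO young 1 library lay within the WT range and the other KO libraries above it (log2 0.56, SE 0.15, adjusted p = 0.0441; 0.0708 with the block). Mrps14 and Mrps18b changed by 0.51 and 0.50 (adjusted p = 0.0484 and 0.0481; 0.0655 and 0.0669 with the block). Of all 15 genes that rose, 13 did not overlap between the genotypes, 15 were higher in KO in every litter, and 15 had their highest value in an old KO library. Over the whole set of 78 genes these counts were 24, 54 and 54. The 15 were called by a genotype test on these same libraries, so their non-overlap and litter counts are not independent of the call.

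Mrps18a, Mrps18b and Mrps18c are 3 homologs of 1 bacterial protein, and Mrps18a went to the large subunit. Their log2 changes were 0.26 (SE 0.14, adjusted p = 0.222), 0.50 and 0.61 (SE 0.19, adjusted p = 0.0618), and only that of Mrps18b passed. Differences among the 3 were not tested. Mrps36, outside the ribosome, had a change as large as those of the genes that rose (log2 0.63, SE 0.20, adjusted p = 0.0600). It was at 78.2 ± 15.4 TPM in KO and 54.6 ± 5.01 TPM in WT (SD, n = 4), and its lowest KO library was below its highest WT library.

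Genes for proteins with other known roles did not pass. Mrpl58, a peptidyl-tRNA hydrolase that frees stalled ribosomes, had a log2 change of 0.37 (adjusted p = 0.148), and Mrpl44, with an RNase III fold, one of 0.11 (adjusted p = 0.635). Mrps16, Mrps22 and Mrps34, whose human counterparts are mutated in respiratory-chain disease, had changes of 0.52, 0.42 and 0.40 (adjusted p = 0.0891, 0.0835 and 0.0995). Mrpl10 at the base of the stalk, Mrpl3 near the catalytic centre, Mrps30 and Mrpl41 had changes of 0.07, 0.16, 0.13 and 0.45 (adjusted p = 0.775, 0.443, 0.533 and 0.0851). At the low end were Mrpl33 (-0.09), Mrpl9 (-0.08), Mrpl50 (-0.03), Mrps27 (0.00) and Mrpl49 (0.07), with adjusted p of 0.740 to 0.998. Mrpl17, the most abundant, was at 348 ± 29.0 TPM in KO and 290 ± 30.8 TPM in WT (log2 0.29, adjusted p = 0.183).

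**Figure D3:**
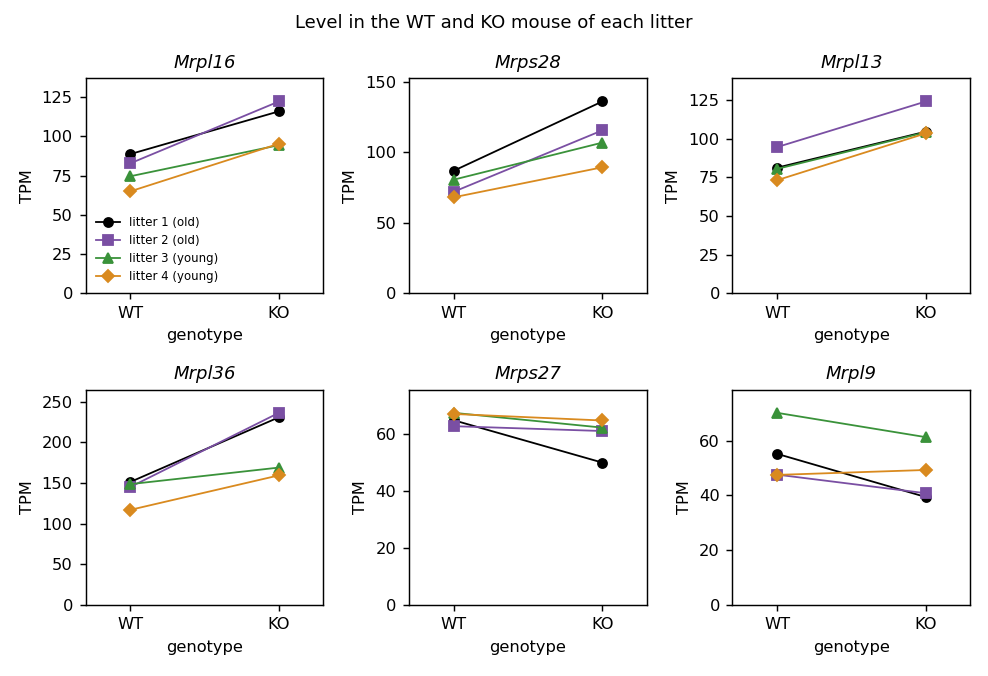
TPM of 6 genes in the WT and KO library of each litter, with 1 line per litter and 1 panel per gene. Mrpl16, Mrps28, Mrpl13 and Mrpl36, called also with the litter block, are higher in KO in all 4 lines, whereas Mrps27 is lower in all 4 and Mrpl9 in 3.

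Transcript models bear on the count of genes called. Transcripts annotated with a retained intron held 4.52% to 6.89% of the estimated counts of the 78 genes, and protein-coding transcripts 85.0% to 88.1%. When genes were counted from protein-coding transcripts only, a setting chosen after seeing the data, 53 of the 77 genes that have such a transcript were higher in KO and 0 lower, with a median log2 change of 0.53. The shares called higher were then 8.38% of all genes tested and 25.2% of coding genes of similar length. Mrpl33 shows the difference in 1 gene. Its main protein-coding transcript was at 149, 189, 119 and 104 TPM in KO and 110, 133, 105 and 83.8 TPM in WT, in the order old 1, old 2, young 1, young 2. A retained-intron transcript of 2741 bases was at 2.61, 7.36, 11.4 and 3.48 TPM in KO and 10.5, 18, 22 and 4.02 TPM in WT. The first was higher and the second lower in the KO library of each litter, and the long transcript weighs more in the summed counts than in TPM.

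Effective length, the number of bases at which a sequenced fragment of a transcript can start, differed between these genes and most others. Its median was 768 bases over the 78 genes (163 to 2612) and 1960 over the 9753 other coding genes. Changes in KO followed length, with a Spearman correlation of -0.63 over those 9753 genes and -0.55 over the 78, given as a description because genes of 1 set of libraries are not independent. TPM decreased with length more steeply in KO libraries. Regressing log2 TPM of coding genes on log2 length gave slopes of -0.721 ± 0.132, against -0.490 ± 0.148 for WT (SD, n = 4). WT young 1 had the flattest slope, at -0.268. The cause of this length trend was not tested.

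Genes of similar length therefore give the closer comparison. Coding genes between the 10th and 90th percentile of the 78 genes' length (373 to 1627 bases, 3490 genes) had a median log2 change of 0.09, and 7.54% were higher in KO, against 19.2% of the 78. As a set they are still longer, with a median of 1104 against 768 bases, and they were not matched for level. Set against the median of coding genes within 10% of its own length, 64 of the 78 genes lay higher, and the median difference over all 78 was 0.14. With a window of 20% the median was 0.14 and 65 lay higher. The excess differed by gene, from -0.60 for Mrpl33 to 0.82 for Mrpl11.

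With counts corrected for the length trend, 8 of the 78 genes rose and 0 fell, against 2.71% of all genes tested and 4.79% of those of similar length that were higher. The median change became 0.15 with 68 genes above 0. The corrected median was 0.14 over all genes tested (61.6% above 0) and 0.01 over coding genes of similar length (51.5%). At an unadjusted p under 0.05, 28 were higher and 2 lower. Mrpl16 (log2 0.42, adjusted p = 0.0260), Mrpl13 (0.44, 0.0214) and Mrpl51 (0.46, 0.0428) were called both ways. The other 5, Mrpl11, Mrpl39, Mrpl57, Mrpl19 and Mrpl35, were called only with the correction, and Mrpl39, Mrpl19 and Mrpl35 are named after their values were seen. Mrpl11, with the longest transcript of the set, was at 31.1, 29.4, 27.0 and 28.8 TPM in KO and 23.7, 24.2, 20.7 and 24.6 TPM in WT, in the order old 1, old 2, young 1, young 2. Its groups did not overlap, and its log2 change was 0.46 before the correction (SE 0.15, adjusted p = 0.0683) and 0.82 after it (adjusted p = 0.0208). Mrpl19 shares 1962 exonic bases with Gcfc2 on the opposite strand, so its own reads cannot be told apart there. With the litter block and the length correction together 6 genes passed, 2 of them among the 15, and 0.979% of all genes tested were higher.

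**Figure D4:**
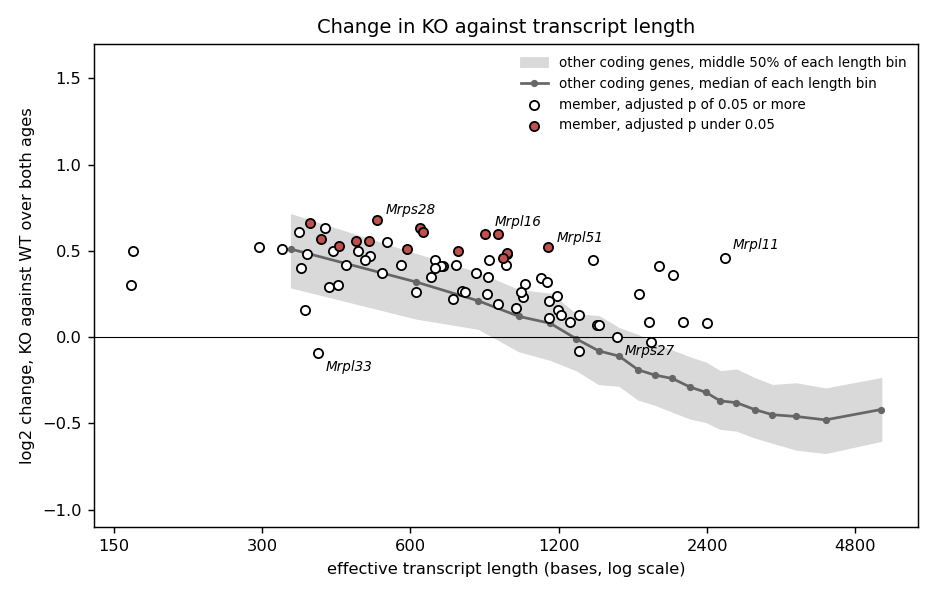
Log2 change in KO over both ages against effective transcript length on a log axis, with the 78 genes as points (red, adjusted p under 0.05) and 9753 other coding genes as the median (line) and middle 50% (band) of 20 length bins. The band falls from left to right, and most points lie above the line, with Mrpl33 well below it and Mrpl11 well above it.

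The 26 shortest, 26 middle and 26 longest of the 78 genes differed in their calls. Without the correction 6, 8 and 1 were called, and with it 0, 2 and 6. Their median changes were 0.50, 0.42 and 0.19 without the correction and 0.06, 0.17 and 0.19 with it. Large and small subunit had medians of 0.40 and 0.38, and 0.15 and 0.14 with the correction. Of 46 proteins with a bacterial homolog 12 rose (median 0.44), and of 31 mitochondria-specific proteins 3 (median 0.32). Mrps18a and Mrps18b are among the 31 by their current ribosome names, and counted as homologs they give 13 of 48 and 2 of 29, with the same medians. The 31 mitochondria-specific genes are longer, with a median of 936 against 679 bases, and with the length correction the medians were 0.14 for both.

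**Figure D5:**
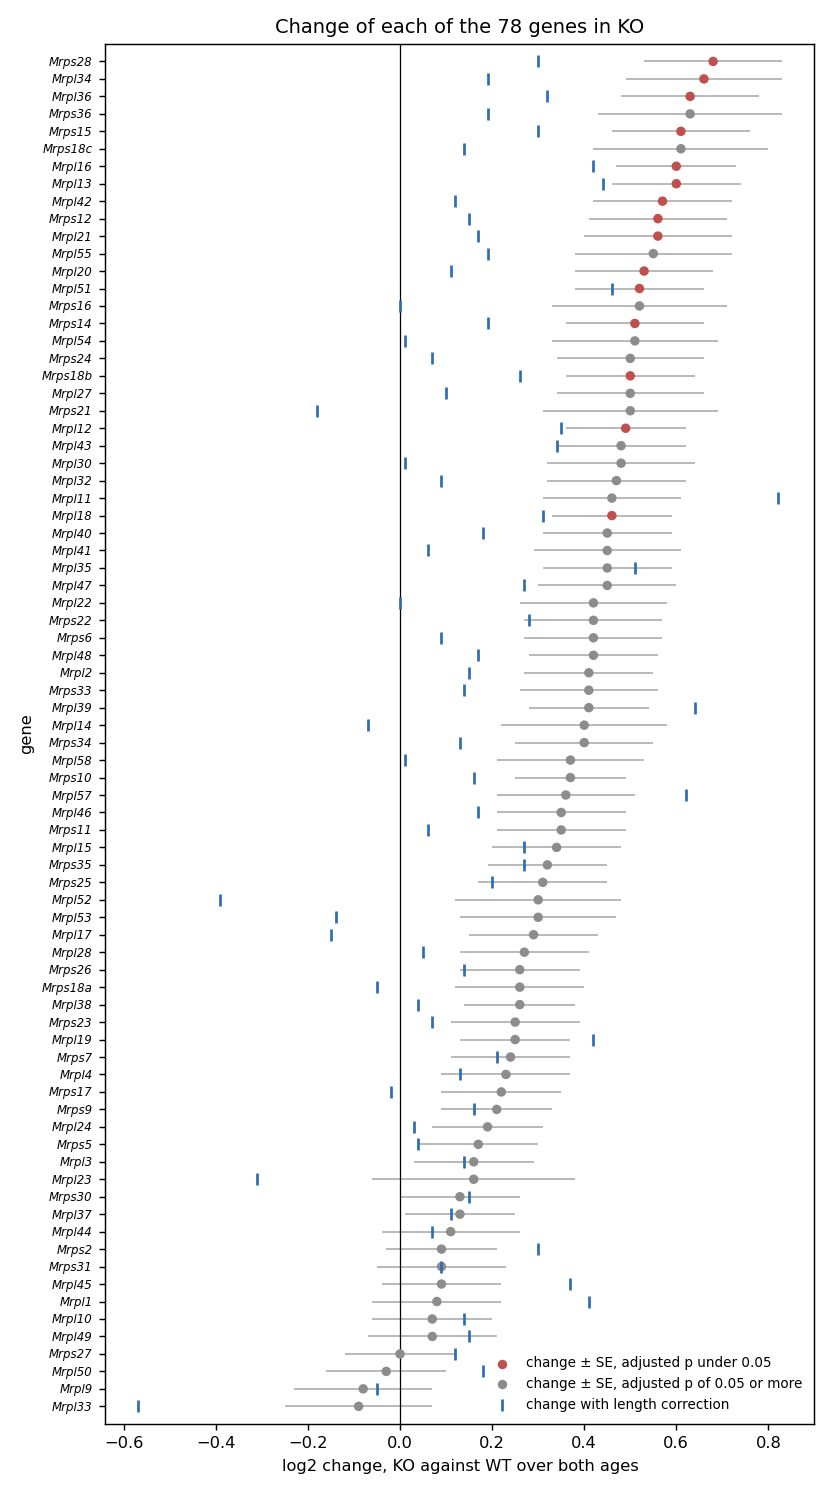
Log2 change in KO over both ages of each of the 78 genes as points with bars of 1 SE (red, adjusted p under 0.05), and the change with length correction as blue ticks. Mrps28 is at the top with 0.68 and Mrpl33 at the bottom with -0.09, and most ticks lie left of their points, except for long transcripts such as Mrpl11.

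Start sites on opposite strands lay close to another coding gene's for many of the 78 genes. In 33 (42.3%) such a start was within 1000 bases, against 18.3% of other coding genes with at least 5 TPM and 20.9% of those of similar length. With overlaps of more than 300 bases left out it was 23 (29.5%), against 14.9%. The distance was widened from the narrower rule after values were seen, and the pairs named here were chosen after seeing them. Mrpl36 and Ndufs6, a subunit gene of respiratory complex I, both rose (Ndufs6 log2 0.71, adjusted p = 0.0404), but their exons share 30 bases. Mrps12 rose, whereas Sars2, the mitochondrial seryl-tRNA synthetase gene that starts 172 bases away, had a log2 change of 0.02 (adjusted p = 0.949). Mrpl51 rose while its neighbour Ncapd2 had a change of -0.33 (adjusted p = 0.233), and beside Mrps7, which was not called (0.24), Gga3 fell by 0.69 (adjusted p = 0.0301). Differences within pairs were not tested, and the partners' transcripts are longer (1527, 3375 and 3039 bases for Sars2, Ncapd2 and Gga3). Mrps11 and Mrpl46, the only pair within the 78, had equal changes of 0.35 each and share 173 exonic bases. In all, 22 of the 78 genes share at least 100 exonic bases with a gene of at least 1 TPM, and their values are uncertain to that extent.

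Promoters of genes that rose are shown because nuclear genes of the mitochondrial ribosome are known targets of the factors NRF1, of ETS factors such as GABP, and of YY1. The stretches below end 1 to 25 bases before the RefSeq start site and hold no annotated exon, and capitals mark a match to a motif of NRF1, ETS, YY1 or CREB. They are from RefSeq (GRCm38.p6), 5′ to 3′ on the gene's strand. The first is upstream of Mrpl16 (chr19:11770241-11770390, plus strand), the second of Mrpl12 (chr11:120484463-120484612, plus), the third of Mrpl34 (chr8:71464776-71464925, plus) and the fourth of Mrps12 (chr7:28741822-28741971, minus), between Mrps12 and Sars2.
Mrpl16: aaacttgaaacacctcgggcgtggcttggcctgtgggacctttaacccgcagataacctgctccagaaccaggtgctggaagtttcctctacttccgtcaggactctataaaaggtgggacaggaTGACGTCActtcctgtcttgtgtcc
Mrpl12: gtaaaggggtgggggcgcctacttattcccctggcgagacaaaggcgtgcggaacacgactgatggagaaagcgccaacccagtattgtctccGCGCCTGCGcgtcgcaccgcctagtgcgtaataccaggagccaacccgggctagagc
Mrpl34: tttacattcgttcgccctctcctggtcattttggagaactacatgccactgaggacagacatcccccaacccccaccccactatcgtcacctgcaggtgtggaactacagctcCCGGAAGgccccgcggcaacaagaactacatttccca
Mrps12: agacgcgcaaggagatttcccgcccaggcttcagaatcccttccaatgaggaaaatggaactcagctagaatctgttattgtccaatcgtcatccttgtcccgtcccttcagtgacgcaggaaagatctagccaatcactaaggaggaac

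Matches were searched on both strands in the 300 bases around the start, 250 before it and 50 after it, in 75 windows of 69 of the genes and 32851 windows in all. Mrpl4, Mrpl13, Mrpl15, Mrpl19, Mrpl38, Mrpl54, Mrps28, Mrps34 and Mrps35 had no window. The NRF1 motif GCGCNTGCG was in 24.0% of the 75 windows, against 6.3% of all windows and 14.2% of those of coding genes with at least 5 TPM. The ETS motif CCGGAAG was in 34.7%, against 8.9% and 19.4%, and the YY1 motif AAGATGGCG in 10.7%, against 1.4% and 3.3%. At least 1 of these 3 was near the start of 43 genes. The CREB motif TGACGTCA was in 2.7% (1.8% and 3.2%), the E-box CACGTG in 9.3% (7.2% and 10.2%) and the SP1 motif GGGCGGG in 42.7% (25.6% and 46.4%). Among the 13 windows of the genes that rose, 2 held the NRF1 motif, 6 the ETS motif and 2 the YY1 motif. Mrpl16 has the CREB motif, Mrpl12 the NRF1 motif and Mrpl34 the ETS motif before its start, and the stretch before Mrps12 holds none of the 4, while an ETS match begins at its start site. A match describes letters and shows no binding, and the share of G and C was 58.7% in the median window of the 78 genes, 52.7% in all and 60.7% in those of expressed coding genes.

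The comparisons within 1 age ask whether the genotype difference is present in old and in young mice. In old mice 0 of the 78 genes passed (0.65% of all genes tested were called). At an unadjusted p under 0.05 in edgeR 34 were higher and 0 lower, against 498 and 281 of the 3490 coding genes of similar length. Over all 25543 genes tested 2381 were higher and 3024 lower. Among the 78 the median log2 change was 0.48, with 73 above 0. With the length correction the median was 0.19. Without KO old 2, WT old 1 or WT old 2 it was 0.30, 0.29 or 0.74, with 5, 5 or 56 higher unadjusted. DESeq2 called 21 (4.4% of all genes tested were higher), limma 5 (1.66%), and edgeR with the length correction 4 (0.474%). Without KO young 1, KO young 2, WT young 1 or WT young 2 the count was 4, 1, 5 or 10 (2.39%, 2.04%, 2.27% or 3.25% of all genes), and without each of the other 4 libraries it was 0. The highest changes were Mrpl34 (0.90, SE 0.24, adjusted p = 0.0804), Mrps28 (0.87), Mrpl36 (0.86), Mrps36 (0.86) and Mrps15 (0.81), and the lowest Mrpl9 (-0.14), Mrpl50, Mrpl33, Mrpl49 and Mrps27 (-0.00). In young mice 0 passed (0.0626% of all genes tested were called). Unadjusted, 2 were higher and 0 lower, against 170 and 67 of the 3490 coding genes of similar length. The 78 had a median of 0.32, with 76 above 0. None passed after adjustment in the other fits run. The unadjusted count was 44 higher with protein-coding transcripts only, 23 in limma, 4 in DESeq2, and 0 to 34 with 1 library left out, 34 without WT old 1. The median was 0.10 with the length correction and 0.22 to 0.43 with 1 library left out. Its highest were Mrpl13 (0.54, SE 0.22, adjusted p = 0.513), Mrpl16 (0.53), Mrps28, Mrpl20 and Mrps18c (0.47), and its lowest Mrpl33 (-0.11), Mrpl9, Mrps27, Mrpl10 and Mrps5 (0.05). The interaction of genotype and age tests whether the 2 differences differ, and 0 of the 78 passed (0.00391% of all genes tested), with 0 at an unadjusted p under 0.05 in edgeR. None passed after adjustment in the other fits run, while unadjusted 4 were higher with the length correction, 9 without WT old 2 and 1 with block and length correction, and 1 was lower in limma. Its median was 0.14, and -0.06, -0.03, -0.15 and -0.02 without KO old 2, KO young 1, WT old 1 and WT young 2, and 0.40 without WT old 2.

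Age was compared next, old against young over both genotypes. Here 0 of the 78 genes passed, although 13.9% of all genes tested were called, and 2 were higher and 2 lower at an unadjusted p under 0.05 in edgeR. The median log2 change was 0.11, with 53 above 0, against 0.15 over all genes tested. The median difference from coding genes within 10% of each gene's length was 0.02, with 43 of 78 higher, and the length-corrected median was 0.03. RLE scaling and DESeq2 each called 1 (4.26% and 10.7% of all genes tested were higher), limma 0, and 10 were higher when only protein-coding transcripts were counted (4.4%). Unadjusted, 24 were higher and 1 lower in limma on log2(TPM + 1), and 12 and 2 with the length correction. With protein-coding transcripts only 36 and 0 were (median 0.29). Shares of all genes at an unadjusted p are not given here for these fits. Within batch 1 the median was -0.08 and within batch 2 it was 0.24. Without WT old 1 it was 0.22 (20 higher and 0 lower unadjusted), without WT old 2 it was 0.01 (1 and 7), without WT young 1 it was 0.02 (1 and 6), and without litter 1 it was 0.31 (11 and 0). Leaving out WT old 2 gave 1 lower gene, and the other libraries 0.

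Mrpl52, a short mitochondria-specific protein of the large subunit, had the highest change with age (log2 0.56, SE 0.18, adjusted p = 0.0573). It was at 190, 170, 152 and 142 TPM in the old libraries and 93.1, 118, 111 and 101 TPM in the young, in the order KO 1, KO 2, WT 1, WT 2. No old value overlapped a young one, which held also for Mrpl53 (log2 0.32, adjusted p = 0.189), while Mrps2 was lower in all old libraries (-0.23, adjusted p = 0.191). Of the 78 genes, 2 were thus separated upward with age and 1 downward. The share of all genes tested with such separation by age is not given here. These counts therefore have no background beside them and are no result about the set. The effective length of Mrpl52, 163 bases, is the shortest of the set, and its change was 0.12 with the length correction (adjusted p = 0.496). Mrps18c (0.41), Mrpl41 (0.37), and Mrpl36 (0.31) were the other high values, and Mrpl9 (-0.35), Mrpl50 (-0.30), Mrpl10 (-0.22) and Mrpl49 (-0.22) the other low ones, none of which passed. Over the 78 genes the change with age correlated with length at a Spearman value of -0.75, and over the other coding genes at -0.64.

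Within WT mice 0 of the 78 genes passed with age (0.0861% of all genes tested were called), and 0 passed after adjustment by DESeq2 and limma. At an unadjusted p under 0.05 the count was 0 in edgeR. It was 8 higher and 0 lower in limma on log2(TPM + 1) (median 0.12). With protein-coding transcripts only it was 6 higher and 0 lower (median 0.20). The median in the main edgeR fit was 0.00. That median lay between opposite values, at 0.30 without WT old 1 (76 of 78 above 0) and -0.29 without WT old 2 (4 of 78). Mrpl52 (0.38) and Mrpl41 (0.37) were highest and Mrpl9 (-0.29) and Mrpl10 (-0.27) lowest. Within KO mice 0 passed (0.0861% were called), and DESeq2 called 1 (4.33% of all genes tested were higher). The median was 0.16, which was 0.06 without KO old 2 and 0.04 without WT young 1. Unadjusted, 3 were higher and 0 lower in edgeR, and 18 and 2 in limma on log2(TPM + 1). With the length correction 14 and 0 were, and with protein-coding transcripts only 34 and 0 (median 0.34). Shares of all genes at an unadjusted p are not given here for these other fits. Mrpl52 (0.75, SE 0.27, adjusted p = 0.145), Mrps18c (0.55), Mrpl36 (0.54) and Mrpl34 (0.54) were highest there, and Mrpl9 (-0.42) and Mrpl50 (-0.39) lowest. Each of these comparisons shares its libraries with the ones above, and the differences between the genotypes in the effect of age are the interaction given there.

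Of 90 genes tested in the other lists of mitochondrial protein synthesis and biogenesis, 1 rose and 3 fell (3.33%) in KO. Of all genes tested 3.19% rose and 6.78% fell, and of other coding genes with at least 5 TPM 3.71% and 14.7%. Of 5 further ribosomal subunits without an Mrp symbol 1 rose. It was Chchd1 of the small subunit (138 ± 30.7 TPM in KO and 98.9 ± 21.6 in WT, SD, n = 4, log2 0.62, adjusted p = 0.0334; 0.0558 with the litter block), while Dap3 changed by 0.10 (adjusted p = 0.642). Of 14 translation factors, with a median length of 1568 bases, 0 passed (median -0.02, and 0.03 with the length correction). Among them Tufm, the elongation factor that brings tRNAs, changed by 0.25 (adjusted p = 0.235). Of 20 tRNA synthetase and amidotransferase genes, with a median length of 1818 bases, 0 passed (median -0.17, and 0.06 with the length correction). In that list Lars2 had a change of 1.13 (SE 0.34, adjusted p = 0.0564), with KO old 1 at 243 TPM and the other 7 libraries at 44.8 to 76.3 TPM, and it was called with the length correction (log2 1.59, adjusted p = 0.0487). Of 26 assembly and rRNA modification genes tested, 0 rose and 1 fell, the helicase gene Dhx30 (log2 -0.57, adjusted p = 0.0342; 0.0591 with the block). Of 16 genes for transcription of mitochondrial DNA and RNA handling 0 rose and 2 fell. These were Polg, the DNA polymerase (-0.84, adjusted p = 0.0247; 0.0469 with the block), and Polrmt, the RNA polymerase (-0.61, adjusted p = 0.0308; 0.0559 with the block), while Tfam changed by 0.13 (adjusted p = 0.522). In WT young 1 Dhx30, Polg and Polrmt were at 115, 67.5 and 44.7 TPM. The other WT libraries were at 62.2 to 68.9, 23.9 to 27.6 and 22.8 to 30.7 TPM. Dhx30, Polg and Polrmt have long transcripts (2938, 3436 and 3085 bases), and none was called with the length correction (adjusted p = 0.249, 0.0562 and 0.139). With the length correction 3 genes of these lists rose (Lars2, Gadd45gip1 and Mrrf) and 1 fell (Mrm1), the last 3 named after their values were seen. Of all 25543 genes tested 691 rose and 583 fell with it.

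Of 9 regulators of mitochondrial biogenesis 0 passed in KO against WT and 9 of 9 had changes below 0 (median -0.29, and 0.00 with the length correction). Nrf1 changed by -0.42 (adjusted p = 0.0617), Gabpa by -0.45 (adjusted p = 0.0933), Yy1 by -0.02 (adjusted p = 0.956), Ppargc1a by -0.70 (adjusted p = 0.168) and Ppargc1b by -0.16 (adjusted p = 0.593). With age 0 genes of these 6 lists rose, and 1 further subunit, 1 translation factor, 4 synthetases, 3 assembly genes, 4 genes of DNA transcription or RNA handling and 4 regulators fell. These 17 of 90 genes tested (18.9%) compare with 9.61% of all genes tested and 23% of other coding genes with at least 5 TPM that fell with age. Among the 17 were Polg (-0.93, adjusted p = 0.0219), Polrmt (-0.78, adjusted p = 0.0208), Pprc1 (-0.90, adjusted p = 0.0279) and Nrf1 (-0.50, adjusted p = 0.0353). With the length correction 0 of these genes were called with age in edgeR.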

How the data were processed

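RNA of 8 libraries was measured, and the files hold estimated counts and TPM per transcript, deposited by the authors. The submitters' processing notes name kallisto, mm10 and DESeq2 without versions. TPM, per the file headers, is scaled for transcript length and depth. Of 115088 transcripts, 114200 matched GENCODE vM21 (GRCm38) by name, and 94.2% of those had the same length. The 888 others held 0.259% to 0.47% of the counts. Both units were summed per gene, and sums of estimated counts were rounded to whole numbers.

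Genes were tested in edgeR 4.0.16 (R 4.3.3) with TMM scaling, the filterByExpr filter (minimum count 10, minimum total 15), the quasi-likelihood test and Benjamini-Hochberg adjustment over 25543 genes. The threshold was an adjusted p under 0.05. Comparisons over both ages or genotypes were fitted with terms for genotype, age and batch, which left 4 residual degrees of freedom, and the others with 4 groups and batch, which left 3. SE is the log2 change divided by the root of F. Alternatives were RLE scaling, DESeq2 1.42.0, limma 3.58.1 on log2(TPM + 1) and log2(TPM + 0.1), no filter, no batch term, a length correction (lowess of change on log length, span 0.3, entered as offsets), litter as a block, and leaving out libraries or litter 1. Counting protein-coding transcripts only was added after seeing the data. Tables and figures used Python 3.11.15 with pandas 2.3.3, numpy 2.4.6, scipy 1.17.1 and matplotlib 3.10.9.

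Littermates pair 1 KO with 1 WT library per the labels. Their deviations from the group means correlated at 0.08 in old and 0.12 in young mice over all genes tested, and at 0.63 and 0.62 over the 78 genes. Within each age 1 litter belongs to each batch, so a shared litter and a shared batch cannot be told apart in these values. Whether each library was a separate mouse is not given, so p-values measure the spread between these libraries, with 2 in each group limiting the precision.

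The genes and lists were chosen with earlier results of these data known. Named genes are, per comparison, up to 10 called genes in each direction by log2 change, or the 5 highest and 5 lowest where fewer than 10 were called. The rule adds the 5 highest and 5 lowest by mean TPM, 15 genes of known role, up to 3 called genes and 10 fixed genes of the other lists, and Asxl2. Sequences are from RefSeq (GRCm38.p6).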

Additional observations from a re-analysis of the deposited data

How the results depend on the processing

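Of KO against WT over both ages, 15 genes passed in edgeR. DESeq2 called 40, no filter 23, length correction 8, no batch term 0 (40 higher unadjusted), the litter block 4, the block with length correction 6, and protein-coding transcripts only 53. Leaving out 1 library gave 0 to 31. Within batch 1 it was 0, within batch 2 it was 2, and without litter 1 it was 0. RLE scaling (21) and limma (19 and 19) stayed within 1.5 times, and the median change was above 0 in each of these fits. Shares of all genes tested that were higher are not given here for DESeq2, RLE, limma or no filter over both ages. In old mice they are not given for no filter or protein-coding transcripts only. These counts therefore have no background beside them. DESeq2 called 4.4% of all genes tested higher in old mice, against 0.204% in edgeR. In old mice, where 0 passed, DESeq2 called 21, no filter 4, limma 5 and 5, length correction 4, protein-coding transcripts only 24, and leaving out 1 library 0 to 10. Old against young over both genotypes gave 1 with RLE, 1 with DESeq2, 10 with protein-coding transcripts only, and 0 to 1 without 1 library, and its median of 0.11 became -0.08 within batch 1 and 0.01 to 0.22 without 1 library. In KO mice DESeq2 called 1 with age. The interaction's median of 0.14 ran from -0.15 to 0.40 without 1 library, and was -0.06, -0.03, -0.15 and -0.02 without KO old 2, KO young 1, WT old 1 and WT young 2. The cause of these moves was not tested, and fits without a library or litter have fewer residual degrees of freedom, with a lone library of a group assumed to vary like the others. A litter block could not be fitted for age, since each litter is of 1 age. The block for KO against WT was paired by litter and changed no other count by over 1.5 times. Values with the block are 4 of 78 over both ages. The estimated counts cannot show how reads shared by overlapping genes were split.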
